A study of Mus musculus with 12 samples.

Results

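A set of 10 genes that handle lipids or mark glial and phagocyte responses to injury was followed across 4 cell states: Apoe, Apod, Lpl, Abca1, Abcg1, Trem2, Gpnmb, Fabp5, Plin2 and Lgals3. They were chosen by name, with earlier results of these data known. All 10 of 10 were found among the 55487 genes of the deposited table. They also passed the filter on low values, which left 16016 genes. The 12 libraries were polyadenylated RNA from cultures grown out of the cochlear modiolus, the core of the cochlea that carries the auditory nerve, of mice of both sexes on a mixed C57Bl6 and FVB/N background at postnatal day 4. The sphere group (n = 3) held proliferating spheres kept in suspension with EGF at 20 ng/ml, bFGF at 10 ng/ml, IGF at 50 ng/ml and heparan sulfate at 50 ng/ml. The SCDM group (n = 3) was differentiated for 14 days in a medium with the neurotrophins BDNF and NT3, each at 50 ng/ml. The SCDM/FGF group (n = 3) received the same with bFGF at 100 ng/ml added. The FIBCL group (n = 3) was induced in Neurobasal medium with bFGF, LIF at 1000 U/ml and small molecules, namely Forskolin at 20 µM, ISX9 at 20 µM, I-BET at 1 µM and CHIR99021 at 10 µM, also for 14 days. The differentiated groups were plated on laminin at 10 ng/ml, which the suspended spheres were not. The labels give the bFGF dose of FIBCL as both 50 and 100 ng/ml. All groups shared the sphere stage as their source, and the ganglia of several mice went into a preparation. FIBCL differed from SCDM in basal medium, in growth factors and in small molecules at once. No difference between FIBCL and SCDM can therefore be tied to a single agent.

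Lipids move between cells of nervous tissue on particles that carry apolipoproteins such as ApoE, made mainly by glia and macrophages. The transporters ABCA1 and ABCG1 load cholesterol onto these particles, lipoprotein lipase frees fatty acids from their triglycerides, and what a cell takes up beyond its needs is stored in droplets coated by perilipins. After nerve injury Schwann cells raise apolipoprotein D, and phagocytes that clear myelin debris switch on a set of genes around the receptor TREM2 that includes GPNMB, FABP5 and galectin-3.

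Values below are scaled TPM, that is, deposited TPM (transcript abundance relative to all transcripts of a library) divided by a factor for each library that sets the typical abundant gene equal across libraries. Log2 changes are on the scale log2(scaled TPM + 1) from limma, which understates the change of low genes, whereas a value written as N-fold is the ratio of the mean scaled TPM of the groups, so that the pair can differ. Tests are those of limma, with p-values adjusted by the Benjamini-Hochberg method over all 16016 genes, and a gene was called at an adjusted p under 0.05. TPM is corrected for transcript length, so levels can be set side by side between genes, though only roughly, since reads can be shared between genes. A value after ± is the SD over the 3 libraries of a group. The groups separated widely in the table as a whole: on this scale 32.7% of all genes were called higher and 39.0% lower in FIBCL than in SCDM. The labels were checked against marker lists. The summed level of 7 neuronal markers, which include Tubb3 and Snap25, was 390.4 to 417 scaled TPM in FIBCL and at most 22.3 in every other library. The summed level of 7 glial markers, which include Sox10 and S100b, was 16.1 to 21.1 in FIBCL, 128 to 165 in SCDM/FGF, 143 to 164 in SCDM and 384 to 401 in spheres. Summed levels of 15 macrophage markers were 42.8 to 45.0 in FIBCL, 1985 to 2172 in SCDM/FGF, 1781 to 1993 in SCDM and 129 to 149 in spheres. The 8 mesenchymal markers, which include Col1a1 and Dcn, summed to between 61.0 and 62.1 in FIBCL, 5280 and 5647 in SCDM/FGF, 5756 and 5990 in SCDM and 2594 and 2641 in spheres. The 7 endothelial and adipocyte markers summed to 12.9 to 13.4 in FIBCL and 265.3 to 303.3 in SCDM/FGF. Their sums were 38.1 to 46.2 in SCDM and 106.5 to 109.3 in spheres. The endothelial marker Emcn made up most of the sum in every group but FIBCL, where it was listed at 0. Of the 5 tested, 2 were higher and 2 lower in FIBCL than in SCDM, and 2 were higher and 1 lower in SCDM/FGF than in SCDM. In bulk RNA, fewer cells of a type and less RNA per cell cannot be told apart.

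Of the 10 genes, 8 fell, 1 rose and 1 was not called in FIBCL against SCDM. Of all genes tested, 39.0% were lower and 32.7% higher there. The median difference of the 10 genes was -2.11 on the log2 scale, beside -0.07 over all genes tested. With a change of at least 1.5 log2 also required, 5 of the 10 were lower and 0 higher, where 9.98% of all genes were lower and 7.89% higher by that rule. The genes that fell were Apoe, Apod, Lpl, Abca1, Trem2, Gpnmb, Fabp5 and Lgals3, by between 1.60-fold for Lgals3 and 575-fold for Apod. Plin2 was the gene that rose, although not on deposited TPM, and Abcg1 the one not called. In the same comparison 15 of 15 macrophage markers, 8 of 8 mesenchymal markers and 6 of 7 glial markers were lower, and 6 of 6 tested neuronal markers were higher. The part of cell makeup in the changes of the 10 genes was not tested. The plot of the levels by library shows the 4 states side by side.

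**Figure D1:**
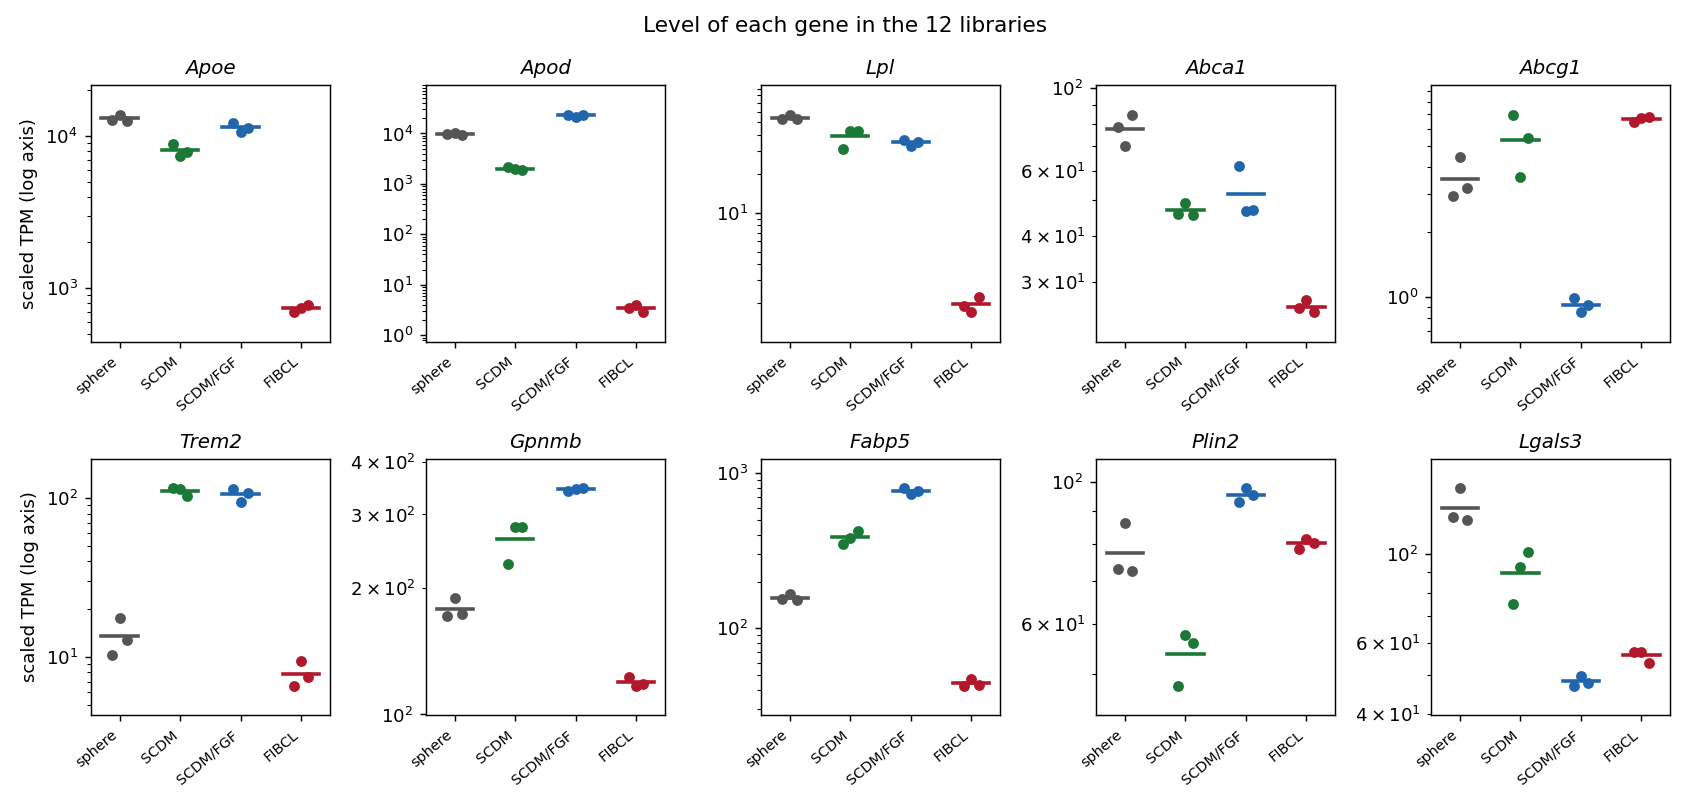
Scaled TPM (log axis, a separate range in each panel) of the 10 genes, with 1 point for each of the 12 libraries and a line at the mean of each group. Apoe, Apod and Lpl were lowest in FIBCL by a wide gap, Trem2 was high in both SCDM groups, and Fabp5 rose from spheres through SCDM to SCDM/FGF.

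The 250 bases before the transcription start are shown for 3 of the genes, because their levels took different courses through the 4 states: Apod, the most changed of the set; Trem2, which was higher in both SCDM groups; and Abca1, which was highest in spheres. The sequences are from RefSeq on GRCm38.p6, read 5′ to 3′ on the strand of the gene. Apod lies on the minus strand and its window is chr16:31314809-31315058. Trem2 lies on the plus strand and its window is chr17:48346151-48346400. Abca1 lies on the minus strand and its window is chr4:53159896-53160145. Capitals mark matches, on either strand, to CACGTG (the E-box), TGANTCA (the AP-1 site), TGACGTCA (the cyclic AMP response element), TATAAA (the TATA box), AGGTCA (the nuclear receptor half-site) and CCAAT.
Apod: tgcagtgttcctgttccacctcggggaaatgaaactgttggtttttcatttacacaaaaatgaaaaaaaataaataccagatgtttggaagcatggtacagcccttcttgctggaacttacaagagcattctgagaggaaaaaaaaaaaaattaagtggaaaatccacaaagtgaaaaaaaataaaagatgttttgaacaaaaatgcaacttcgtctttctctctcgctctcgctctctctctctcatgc
Trem2: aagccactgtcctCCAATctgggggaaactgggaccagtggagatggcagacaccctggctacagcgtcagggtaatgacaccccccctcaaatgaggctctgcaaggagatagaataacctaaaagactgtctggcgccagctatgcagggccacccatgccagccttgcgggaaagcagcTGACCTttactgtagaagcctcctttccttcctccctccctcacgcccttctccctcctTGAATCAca
Abca1: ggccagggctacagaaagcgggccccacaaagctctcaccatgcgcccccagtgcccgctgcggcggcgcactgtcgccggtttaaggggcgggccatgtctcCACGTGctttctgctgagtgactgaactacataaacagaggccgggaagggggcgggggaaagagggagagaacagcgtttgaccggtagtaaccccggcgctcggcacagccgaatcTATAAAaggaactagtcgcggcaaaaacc
The Apod window held none of the 6 words. The Trem2 window held TGAATCA at 9 to 3 bases before the start, TGACCT (the complement of the half-site) at 68 to 63 bases and CCAAT at 237 to 233 bases. The Abca1 window held CACGTG at 147 to 142 bases and TATAAA at 29 to 24 bases before the start. Over all 32851 windows of the same length, CACGTG was found in 6.02%, TGANTCA in 6.75%, TGACGTCA in 1.55%, TATAAA in 12.4%, AGGTCA in 14.0% and CCAAT in 33.8%. A match is a description of the letters only, and binding was not measured here. A RefSeq window was found for 7 of the 10 genes.

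Among the carriers of lipid, Apoe (chr7:19696109-19699188 on GRCm38), which encodes the main apolipoprotein of nervous tissue, was 12846, 13870.1 and 12535 scaled TPM in the 3 sphere libraries. In SCDM it was 8899, 7442 and 7861, and in SCDM/FGF 12174, 10705 and 11392. In FIBCL it was 698, 738 and 771. It ranked 3 among all genes in every sphere library, 4 to 6 in SCDM and 6 in SCDM/FGF, and ranked 179 to 185 in FIBCL. Apoe was 10.96-fold lower in FIBCL than in SCDM (log2 change -3.45, SE 0.08, limma adjusted p = 1.07e-11) and 17.8-fold lower than in spheres, with no overlap between groups. The step from spheres to SCDM was smaller, a log2 change of -0.70 (limma adjusted p = 1.70e-05). Between SCDM/FGF and spheres the difference was -0.20 (limma adjusted p = 0.0545), which did not pass the threshold although the libraries of the groups did not overlap. Apoe was thus among the most abundant transcripts in both neurotrophin media and was still well expressed, though far lower, in FIBCL.

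Apod (chr16:31296192-31314808), whose product is a lipocalin that carries arachidonic acid and other small lipids, spanned the widest range of the set. The 3 sphere libraries were at 9540.5, 10445 and 9476 scaled TPM and the SCDM libraries at 2117, 1944 and 1888. The SCDM/FGF libraries were at 23519, 21426 and 23696, and the FIBCL libraries at 3.53, 3.92 and 2.90. No pair of groups overlapped, and the order was SCDM/FGF, spheres, SCDM and FIBCL. In SCDM/FGF the gene ranked 2 among all genes in each library, against 5 in spheres, 62 to 67 in SCDM and 11141 to 11850 in FIBCL. It was 575-fold lower in FIBCL than in SCDM (log2 change -8.81, SE 0.08, limma adjusted p = 1.87e-14). The log2 difference of FIBCL from SCDM/FGF was -12.33 (limma adjusted p = 2.20e-15).

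With bFGF added to the neurotrophins, Apod was 11.5-fold higher than without it (log2 change 3.53, SE 0.08, limma adjusted p = 1.01e-10), whereas Apoe was higher by 0.50 log2 (limma adjusted p = 2.73e-04). The ratio of Apod to Apoe was 0.00471 ± 0.000827 in FIBCL, 2.00 ± 0.0741 in SCDM/FGF, 0.246 ± 0.0129 in SCDM and 0.751 ± 0.00696 in spheres. A ratio within a library does not depend on how libraries are scaled. Apod and Apoe together made up 2.70% ± 0.0848 of all listed TPM (spheres), 1.08% ± 0.0810 (SCDM), 3.48% ± 0.227 (SCDM/FGF) and 0.0654% ± 0.000935 (FIBCL). The pair thus accounted for most of the TPM of the 10 genes, which together took 2.78%, 1.19%, 3.63% and 0.0956% in the same order.

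Lpl (chr8:68880491-68907448) encodes lipoprotein lipase, which releases fatty acids from circulating triglyceride. It was 1.91, 1.71 and 2.25 scaled TPM in FIBCL, 36.5, 32.8 and 35.1 in SCDM/FGF, 31.2, 42.4 and 42.5 in SCDM and 52.5, 57.0 and 52.2 in spheres. FIBCL lay far below the other libraries, and the SCDM and SCDM/FGF libraries overlapped. The gene was 19.8-fold lower in FIBCL than in SCDM (log2 change -3.74, SE 0.11, limma adjusted p = 1.03e-10). It was also lower in SCDM than in spheres, with a log2 change of -0.48 (limma adjusted p = 0.0041), and the difference of SCDM/FGF from SCDM, -0.14, was not called (limma adjusted p = 0.368).

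The cholesterol exporters were called in opposite directions in FIBCL against spheres, where Abca1 fell and Abcg1 rose; on deposited TPM Abcg1 was not called there. Abca1 (chr4:53030787-53159895), which loads cholesterol onto lipid-poor apolipoproteins, was 78.8, 69.9 and 85.0 scaled TPM in spheres and 25.5, 26.8 and 24.9 in FIBCL. The SCDM libraries were at 45.9, 49.2 and 45.6 and the SCDM/FGF libraries at 61.8, 46.7 and 47.0, where a single library stood above the rest and the groups overlapped. Abca1 was 1.82-fold lower in FIBCL than in SCDM (log2 change -0.84, SE 0.10, limma adjusted p = 1.67e-05) and 3.02-fold lower than in spheres. Abcg1 (chr17:31057675-31117988), which passes cholesterol to particles that already hold lipid, was low throughout. It was 6.46, 6.76 and 6.77 in FIBCL, 0.990, 0.856 and 0.925 in SCDM/FGF, 6.98, 3.61 and 5.42 in SCDM and 2.92, 4.47 and 3.18 in spheres. SCDM/FGF was below every other library, and the SCDM libraries overlapped both spheres and FIBCL. Abcg1 was 5.78-fold lower in SCDM/FGF than in SCDM (log2 change -1.68, SE 0.18, limma adjusted p = 1.69e-05) and higher in FIBCL than in SCDM/FGF by 1.99 log2 (limma adjusted p = 1.42e-06). The difference of FIBCL from SCDM, 0.31 log2, was not called (limma adjusted p = 0.148), and it rested on single SCDM libraries and on scaling. It was 0.49 in limma without SCDM replicate 1 (adjusted p = 0.0237), 0.095 in limma without SCDM replicate 2 (adjusted p = 0.592) and -0.032 on deposited TPM.

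Trem2 (chr17:48346401-48354147), the receptor by which microglia and macrophages sense lipids and debris, was 10.3, 17.7 and 12.8 scaled TPM in spheres. It was 115, 114 and 104 in SCDM and 115, 94.6 and 108 in SCDM/FGF, and 6.60, 9.46 and 7.50 in FIBCL. Both SCDM groups stood well above spheres and FIBCL and overlapped each other. The rise from spheres was 8.15-fold in SCDM (log2 change 2.97, SE 0.17, limma adjusted p = 6.88e-08) and 7.78-fold in SCDM/FGF (log2 change 2.90, limma adjusted p = 8.94e-08). Trem2 was 14.1-fold lower in FIBCL than in SCDM (log2 change -3.67, limma adjusted p = 3.08e-09) and 1.73-fold lower than in spheres (limma adjusted p = 0.00266). The macrophage markers were counted in the same comparisons: all 15 were higher in SCDM than in spheres (median log2 change 3.48), all 15 were higher in SCDM/FGF than in spheres (median 2.74), and all 15 were lower in FIBCL than in SCDM (median -4.65). In FIBCL against spheres 13 of the 15 were lower and 1, Cd14, was higher (log2 change 0.39, limma adjusted p = 8.40e-04). From the macrophage list C1qa and Csf1r were picked after their values were seen. C1qa, a complement subunit made by macrophages, was 22.7 ± 3.13 scaled TPM (spheres), 416 ± 39.5 (SCDM), 543 ± 22.2 (SCDM/FGF) and 0.385 ± 0.183 (FIBCL). Csf1r, the macrophage growth factor receptor, was 5.19 ± 1.41, 105 ± 10.1, 91.7 ± 8.66 and 0.335 ± 0.187 in the same order. In FIBCL, 9 of the 15 markers were under 1 scaled TPM in all 3 libraries and 0 of the 15 were listed at 0 in all 3, and the part of macrophages in the level of Trem2 was not tested.

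**Figure D2:**
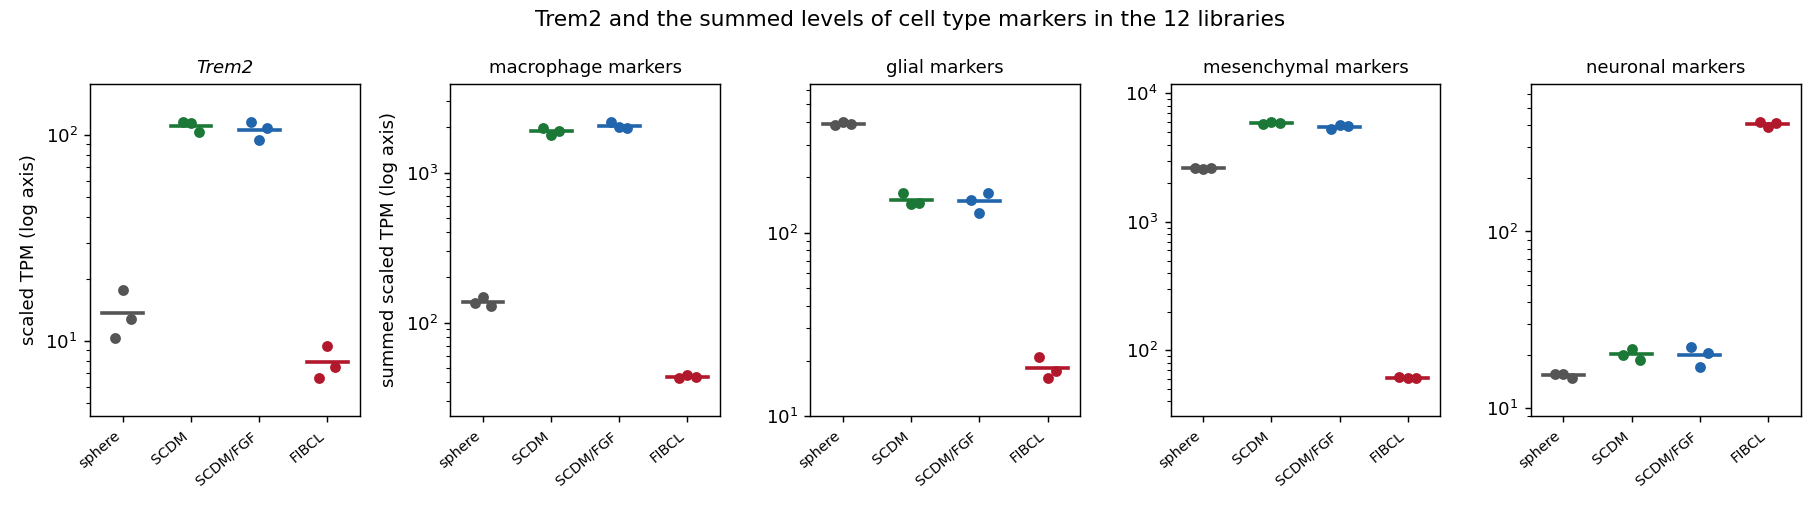
Scaled TPM of Trem2 and summed scaled TPM of macrophage, glial, mesenchymal and neuronal markers (log axes, a separate range in each panel), 1 point a library with the group mean as a line. Trem2 and the macrophage markers were both high in the SCDM and SCDM/FGF libraries and low in spheres and FIBCL, whereas the glial markers were highest in spheres.

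Gpnmb (chr6:49036546-49070929), a lysosomal glycoprotein of phagocytes and pigment cells, was 123, 117 and 118 scaled TPM in FIBCL, 340.4, 346 and 346 in SCDM/FGF, 229, 279 and 279.6 in SCDM and 171, 189 and 173 in spheres. No pair of groups overlapped. It was 2.20-fold lower in FIBCL than in SCDM (log2 change -1.13, SE 0.07, limma adjusted p = 4.82e-08), and higher than in spheres by 0.55 log2 in SCDM (limma adjusted p = 5.17e-05) and by 0.95 in SCDM/FGF (limma adjusted p = 6.98e-07). The 6 melanocyte markers summed to at most 2.16 scaled TPM in every library, and the summed macrophage markers are given above.

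Fabp5 (chr3:10012548-10016607), a chaperone of fatty acids inside the cell, was 42.5, 47.2 and 42.7 scaled TPM in FIBCL, 801, 741 and 767 in SCDM/FGF, 352, 383 and 426 in SCDM and 155, 166 and 151 in spheres. The 4 groups did not overlap, and each step was called. The gene was 2.46-fold higher in SCDM than in spheres (log2 change 1.29, SE 0.07, limma adjusted p = 4.97e-08) and a further 1.99-fold higher with bFGF (log2 change 0.99, limma adjusted p = 4.66e-07). From SCDM to SCDM/FGF, where Fabp5 and Gpnmb rose, 5 of the 15 macrophage markers were higher and 6 lower (median log2 change 0.06), and Trem2 was not called. Of all genes, 21.8% were higher and 21.3% lower there. The part of macrophages in the levels of Fabp5 and Gpnmb was not tested. Fabp5 was 8.76-fold lower in FIBCL than in SCDM (log2 change -3.10, limma adjusted p = 1.08e-11) and 17.4-fold lower than in SCDM/FGF. The exact level of Fabp5 is uncertain because reads can be shared with the processed pseudogene Gm6166 on chromosome 9, whose 409 bases matched the Fabp5 transcript at 402 of 407 aligned bases, or 98.8%. Gm6166 was listed at 45.0% ± 2.06 of the level of Fabp5 in FIBCL, 39.0% ± 0.553 in SCDM/FGF, 38.3% ± 1.99 in SCDM and 41.5% ± 3.76 in spheres. Gm6166 was picked after its values were seen.

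Lgals3 (chr14:47367751-47386160) encodes galectin-3, a lectin that binds sugars on damaged membranes and is abundant in phagocytes. It was 57.1, 57.2 and 53.7 scaled TPM in FIBCL, 47.1, 49.9 and 48.0 in SCDM/FGF, 75.3, 92.6 and 101 in SCDM and 124, 145 and 121 in spheres. Spheres were highest and no pair of groups overlapped. The gene was 1.60-fold lower in FIBCL than in SCDM (log2 change -0.66, SE 0.10, limma adjusted p = 8.27e-05) and fell by 0.54 log2 from spheres to SCDM (limma adjusted p = 7.42e-04). Its course from spheres to SCDM was thus the opposite of that of Trem2, Gpnmb and Fabp5. The difference between FIBCL and SCDM/FGF, 0.21 log2, was not called (limma adjusted p = 0.0767), and its direction turned with scaling, from -0.10 on deposited TPM to a called 0.32 (limma adjusted p = 0.0125) with upper quartile scaling.

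Plin2 (chr4:86648386-86670060) encodes the perilipin that coats lipid droplets in most cells. It was 78.6, 81.4 and 80.1 scaled TPM in FIBCL, 93.0, 97.6 and 95.2 in SCDM/FGF, 48.0, 57.7 and 56.0 in SCDM and 73.1, 86.2 and 72.4 in spheres. SCDM was lowest and SCDM/FGF highest, and the FIBCL libraries lay within the range of the spheres. Plin2 was 1.49-fold higher in FIBCL than in SCDM (log2 change 0.57, SE 0.08, limma adjusted p = 3.78e-05), and on deposited TPM without rescaling the change was 0.17 and was not called (limma adjusted p = 0.0598). It was 1.77-fold higher in SCDM/FGF than in SCDM (log2 change 0.82, limma adjusted p = 5.29e-06). Against spheres the FIBCL difference was 0.06 (limma adjusted p = 0.53), and on deposited TPM it was -0.48 (limma adjusted p = 1.10e-04).

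Across the comparisons the 10 genes did not move as a block. FIBCL against SCDM/FGF had 8 genes lower, 1 higher and 1 not called, beside 38.2% of all genes lower and 32.5% higher. Of these 8, Plin2 lost its call with upper quartile scaling, where its log2 change went from -0.25 to -0.13 (limma adjusted p = 0.144). At 1.5 log2 or more that comparison had 6 lower and 1 higher, beside 9.80% and 6.97% of all genes. FIBCL against spheres also had 8 lower, 1 higher and 1 not called, beside 38.7% and 32.9%, and at 1.5 log2 or more 5 lower and 0 higher, beside 8.80% and 7.14%. SCDM against spheres had 6 lower and 3 higher, where 25.8% of all genes were lower and 24.5% higher. SCDM/FGF against spheres had 4 lower and 5 higher, where 25.4% and 25.0% of all genes were called. SCDM/FGF against SCDM had 2 lower and 5 higher, where 21.3% and 21.8% were called. These comparisons share libraries and are not independent of each other.

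**Figure D3:**
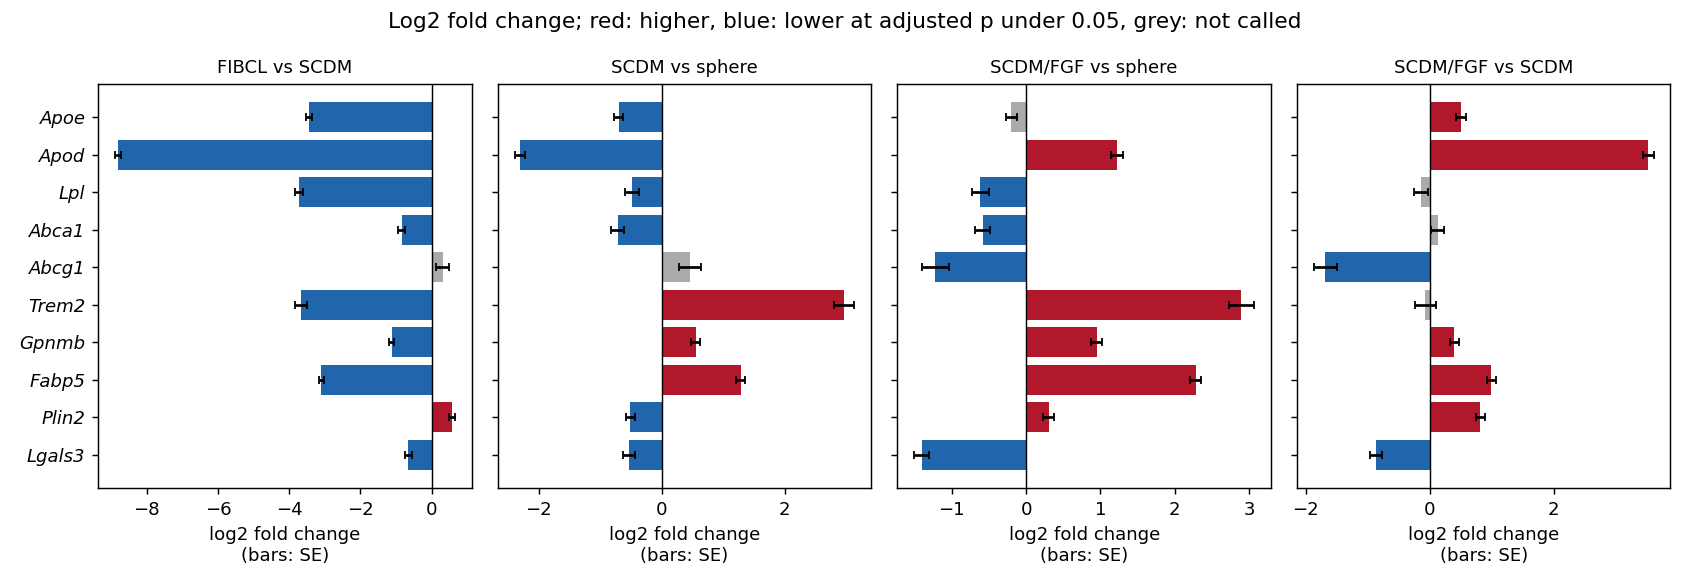
Log2 fold change of the 10 genes in 4 comparisons (a separate axis range in each panel), with bars of 1 SE from limma and n = 3 libraries a group. Of the 10 genes, 8 were lower in FIBCL than in SCDM, where 39.0% of all genes were lower. Trem2, Gpnmb and Fabp5 were higher than in spheres in both SCDM groups.

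The size of these differences depends in part on scaling, since the typical abundant gene had less of the deposited TPM in FIBCL than in spheres. The median of all genes in FIBCL against SCDM moved from -0.07 to -0.40 log2 on deposited TPM. The split of all calls then moved from 5234 higher and 6246 lower to 3280 higher and 8922 lower. Upper quartile scaling turned the balance the other way, with 5976 higher and 5513 lower in FIBCL against SCDM, 6023 and 5374 against SCDM/FGF, and 6017 and 5488 against spheres. On deposited TPM the other splits were 3337 higher and 8199 lower for FIBCL against SCDM/FGF, 2666 and 9821 for FIBCL against spheres, 2805 and 5688 for SCDM against spheres, 2529 and 6871 for SCDM/FGF against spheres, and 2738 and 4261 for SCDM/FGF against SCDM.

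Partners of these genes were counted from lists of their pathways. The counts of each list stand beside these shares of all genes on scaled TPM. In FIBCL against SCDM 32.7% were higher and 39.0% lower. In SCDM against spheres the shares were 24.5% and 25.8%, and in SCDM/FGF against spheres 25.0% and 25.4%. List counts on deposited TPM stand beside other numbers of the 16016 genes. These were 3280 higher and 8922 lower in FIBCL against SCDM. They were 2805 and 5688 in SCDM against spheres, and 2529 and 6871 in SCDM/FGF against spheres. Of 21 tested partners in lipoprotein uptake and cholesterol efflux, 11 fell, 7 rose and 3 were not called in FIBCL against SCDM (median log2 change -0.28). On deposited TPM the same list gave 14 lower and 4 higher. Against spheres the list had 8 lower and 6 higher in SCDM, which became 13 and 6 on deposited TPM. In SCDM/FGF it had 7 lower and 10 higher, a balance that turned to 8 lower and 6 higher on deposited TPM. Lrp1, a large receptor that takes up ApoE particles, was 274 ± 11.9 scaled TPM in FIBCL and 1005 ± 26.1 in SCDM (log2 change -1.87, limma adjusted p = 1.79e-10). Clu, which encodes the apolipoprotein clusterin, went the other way, from 210 ± 7.99 in SCDM to 768 ± 38.8 in FIBCL (log2 change 1.87, limma adjusted p = 2.21e-11). FIBCL thus had about as much Clu as Apoe by TPM. Npc2, a lysosomal cholesterol carrier, was 236 ± 2.56 in FIBCL and 237 ± 6.16 in SCDM (log2 change -0.01, limma adjusted p = 0.883), and its direction turned with scaling, called lower on deposited TPM (-0.41) and higher with upper quartile scaling (0.11, limma adjusted p = 0.0267). Apoc1, a small apolipoprotein encoded next to Apoe, ranged from 3.42 to 7.44 in SCDM and was listed at 0 in the 3 FIBCL libraries.

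The sterol sensor genes were picked from that list after their values were seen. Nr1h3, which encodes the liver X receptor alpha that controls Abca1, Abcg1 and Apoe, was 16.0 ± 1.02 scaled TPM (spheres), 3.53 ± 0.594 (SCDM), 18.0 ± 0.574 (SCDM/FGF) and 1.84 ± 0.438 (FIBCL). Nr1h2, the beta form, was 73.1 ± 5.15, 59.8 ± 4.05, 76.2 ± 1.27 and 104 ± 4.99 in the same order. Nr1h3 was thus higher in SCDM/FGF than in SCDM by 2.08 log2 (limma adjusted p = 1.24e-07), where Apoe was higher (log2 change 0.50), Abcg1 was lower and Abca1 was not called. Mylip, a ubiquitin ligase gene controlled by the liver X receptors, was 45.9 ± 1.03 in SCDM and 11.1 ± 0.714 in FIBCL (log2 change -1.96, limma adjusted p = 2.39e-10).

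Of 14 tested genes for lipase partners and fatty acid uptake, 8 fell and 5 rose in FIBCL against SCDM (median log2 change -0.80). Against spheres the list had 5 lower and 3 higher in SCDM, where 25.8% of all genes were lower and 24.5% higher. In SCDM/FGF it had 5 lower and 5 higher, where 25.4% and 25.0% of all genes were called. On deposited TPM these became 7 and 5, where 6871 of all 16016 genes were lower and 2529 higher. Angptl4, a secreted inhibitor of lipoprotein lipase, was 0.702 ± 0.0320 scaled TPM in FIBCL, 29.1 ± 8.49 in SCDM/FGF, 17.7 ± 1.31 in SCDM and 0.830 ± 0.208 in spheres. It was higher than in spheres by 3.36 log2 in SCDM (limma adjusted p = 2.35e-08) and by 4.01 log2 in SCDM/FGF (limma adjusted p = 6.46e-09), while Lpl itself was lower in both. Fabp7, the fatty acid binding protein of immature glia, was 0.953 ± 0.311 in FIBCL, 40.7 ± 5.73 in SCDM/FGF, 20.0 ± 3.63 in SCDM and 114 ± 6.64 in spheres. From spheres to SCDM Fabp7 thus fell, with a log2 change of -2.47 (limma adjusted p = 1.08e-07), where Fabp5 rose. Slc27a1, a fatty acid transporter, was lower in FIBCL than in SCDM (log2 change -1.62, limma adjusted p = 5.32e-08). Ppard, a nuclear receptor for fatty acids, was higher (log2 change 1.11, limma adjusted p = 1.41e-06).

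The lipid droplet list was the one among these lipid lists in which more genes rose than fell in FIBCL against SCDM: 9 of 14 tested genes rose and 5 fell, with a median log2 change of 0.39, which was -0.01 on deposited TPM with 6 higher and 5 lower. On deposited TPM 3280 of all 16016 genes were higher and 8922 lower there. Hilpda, a droplet protein that inhibits triglyceride breakdown, was 186 ± 11.9 scaled TPM in FIBCL, 22.4 ± 3.03 in SCDM/FGF, 16.3 ± 0.343 in SCDM and 14.7 ± 0.375 in spheres. Its log2 change in FIBCL against SCDM was 3.43 (SE 0.08, limma adjusted p = 1.61e-11). Dgat2, which makes triglyceride, was 4.60 ± 0.570 in SCDM and 33.3 ± 0.820 in FIBCL (log2 change 2.62, limma adjusted p = 2.00e-10). Bscl2, which encodes seipin of the droplet assembly site, was higher by 0.75 log2 (limma adjusted p = 1.32e-06). Acsl3, which activates fatty acids for droplets, was higher by 0.35 (limma adjusted p = 6.27e-06), but its log2 change on deposited TPM was -0.04. Against spheres the same list had 1 higher and 8 lower in SCDM, and 2 higher and 8 lower in SCDM/FGF. In FIBCL against spheres it had 5 higher and 8 lower (median log2 change -0.49), where 32.9% of all genes were higher and 38.7% lower.

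**Figure D4:**
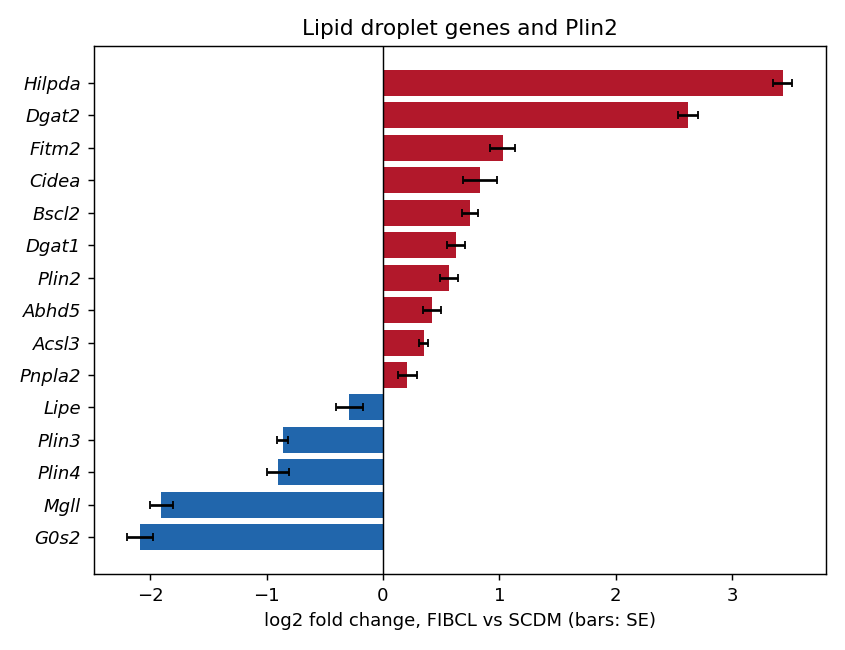
Log2 fold change in FIBCL against SCDM of the 14 tested lipid droplet genes and Plin2, sorted by size, with bars of 1 SE from limma (n = 3 libraries a group, red higher and blue lower at an adjusted p under 0.05). Hilpda and Dgat2 were the most raised, and Mgll and G0s2 the most lowered.

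Of 18 genes of lipid-laden phagocytes other than those of the set, 12 fell and 6 rose in FIBCL against SCDM (median log2 change -0.46). Against spheres 9 were lower and 5 higher in SCDM, and 5 lower and 11 higher in SCDM/FGF. Tyrobp, the signalling partner of TREM2, was 12.9 ± 2.75 scaled TPM in FIBCL, 273 ± 8.83 in SCDM/FGF, 283 ± 9.92 in SCDM and 42.8 ± 9.10 in spheres, the same order of groups as Trem2. Igf1, a growth factor made by such phagocytes and by mesenchymal cells, was 182 ± 8.73 in SCDM and 0.694 ± 0.0790 in FIBCL (log2 change -6.76, limma adjusted p = 1.87e-14). The lysosomal proteases Ctsb and Ctsl rose instead, whereas Ctsd, a further protease of the list picked after its values were seen, fell (log2 change -1.25, limma adjusted p = 2.44e-10). Ctsb was 1014 ± 21.3 in SCDM and 6373 ± 245 in FIBCL (log2 change 2.65, limma adjusted p = 2.82e-12), and Ctsl was 1065 ± 24.8 and 4123 ± 101 (log2 change 1.95, limma adjusted p = 1.26e-11). Spp1, which encodes the secreted protein osteopontin, was 8753 ± 381 in FIBCL, 30279 ± 636 in SCDM/FGF, 5335 ± 804 in SCDM and 12619 ± 587 in spheres. Its order of SCDM/FGF, spheres and SCDM was that of Apod, but in FIBCL Spp1 was above SCDM (log2 change 0.72, limma adjusted p = 3.68e-05).

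Of 12 genes of the repair Schwann cell, the state that Schwann cells enter after nerve injury, 7 fell, 3 rose and 2 were not called in FIBCL against SCDM (median log2 change -0.70). On deposited TPM 9 fell and 1 rose, where 8922 of all 16016 genes were lower and 3280 higher. Jun, the transcription factor that drives this state, was 305 ± 2.19 scaled TPM (spheres), 105 ± 3.23 (SCDM), 167 ± 5.17 (SCDM/FGF) and 99.6 ± 1.97 (FIBCL). Its difference between FIBCL and SCDM was not called (log2 change -0.08, limma adjusted p = 0.0743) and depended on scaling. It was called lower on deposited TPM (-0.47, limma adjusted p = 2.70e-06) and turned to 0.04, not called, with upper quartile scaling (limma adjusted p = 0.332). Ngfr, the p75 neurotrophin receptor, was 255 ± 7.79, 98.5 ± 5.99, 92.6 ± 15.5 and 4.04 ± 0.541 in the same order (FIBCL against SCDM log2 change -4.31, limma adjusted p = 3.56e-11). Gap43, a growth cone protein, was lower in FIBCL (log2 change -1.38, limma adjusted p = 3.19e-08), and so was the glial factor Sox2 (log2 change -3.21, limma adjusted p = 5.81e-10). Stat3, the transducer of LIF signals, was higher by 0.38 log2 (limma adjusted p = 6.22e-05), which became -0.02 on deposited TPM. In SCDM against spheres 9 of the 12 were lower and 2 higher, and in SCDM/FGF against spheres 8 were lower and 4 higher.

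Likeness of pattern was measured as Pearson's r of log2(scaled TPM + 1) across the 12 libraries over 11152 genes, as a description, since all points share the same 4 groups. The gene most like Apoe was Dmp1 (r = 0.998), the gene most like Apod was Serpina3n (r = 0.998) and the gene most like Lpl was Moxd1 (r = 0.996). Trem2 was most like Laptm5 (r = 0.995), a gene on the macrophage list, followed by Ly86 and Pld4. Fabp5 was most like its pseudogene Gm6166 (r = 0.999), followed by A2m (r = 0.996), and Gpnmb was most like Gm6166 (r = 0.993) and Fabp5 (r = 0.992). Abca1 was most like Dyrk1b (r = 0.994). The 2 members with the least close neighbours were Lgals3, most like Rara (r = 0.976), and Plin2, most like Nsg1 (r = 0.968). Abcg1 was too low to be compared. Within the set the closest pairs were Fabp5 with Gpnmb (r = 0.992), Apoe with Lpl (r = 0.986) and Apod with Apoe (r = 0.985).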

How the data were processed

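RNA from 12 cultures (3 libraries in each of 4 groups, labelled as biological replicates; several mice went into a preparation and nothing says whether replicates came from separate preparations, so p-values measure the spread between these cultures) was sequenced after poly(A) selection. The authors used SeqPrep and Sickle to trim reads, TopHat to align them and RSEM to estimate TPM, a transcript abundance relative to the library; Cufflinks is also listed in the submitters' processing notes. The deposited values are TPM with 2 decimals for 55487 genes, not counts, so depth is unknown and limits the precision of low values by an unknown amount. The genome build is not given in the sources used here; positions are from GENCODE on GRCm38. The columns named FIBC in the table were taken as the FIBCL group, the one group of the labels that name fits. The deposited TPM summed to between 899295 and 911076 in the FIBCL libraries and between 982067 and 994845 in the other libraries. Genes above 0 numbered 21625 to 22281 per library.

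Genes reaching 1 TPM in 3 or more libraries were kept (16016). Each library was divided by a factor from its log2 ratios to the average library, averaged after a 30% trim over 8434 genes of at least 5 TPM in every library, with mean offsets from -0.32 in FIBCL to 0.23 in spheres on the log2 scale. A pseudocount of 1 was added before log2, which understates the change of low genes. The 4 groups were fitted in 1 limma model (version 3.58.1 in R 4.3.3) with an intensity trend, and p-values were adjusted by the Benjamini-Hochberg method within each comparison. The procedure was tested on simulated data. Libraries of a group correlated at r = 0.983 to 0.985 and 0 were identical.

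The genes and the pathway and marker lists were chosen with earlier results of these data known. Named list genes were the 3 with the highest mean and the 2 with the largest change in FIBCL against SCDM of each list, with exceptions stated where they occur. Of these, 1 gene is not reported here. No pairing of libraries by replicate number was seen: the correlation of deviations from group means for same-numbered libraries ran from -0.12 to 0.10 over 18 pairs. Alternatives were other scalings, filters, pseudocounts and models, each library left out, the pair of groups alone and the replicate number as a block.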

Additional observations from a re-analysis of the deposited data

How the results depend on the processing

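Of 1320 values of the 10 genes recomputed under another setting, 1298 kept their direction and their side of the threshold. On deposited TPM without rescaling, the number of genes higher became 0 in FIBCL against SCDM and 0 in FIBCL against spheres, and 3 log2 changes turned, to -0.032 for Abcg1 in FIBCL against SCDM, -0.10 for Lgals3 in FIBCL against SCDM/FGF and -0.48 for Plin2 in FIBCL against spheres. On that scale Abcg1 in FIBCL against spheres lost its call (0.32, limma adjusted p = 0.116), as did Plin2 in SCDM/FGF against spheres (0.08, limma adjusted p = 0.411), and Apoe in SCDM/FGF against spheres was called (-0.43, limma adjusted p = 0.000291). The number higher in FIBCL against SCDM/FGF became 2 with upper quartile scaling, where Plin2 lost its call as lower (-0.13, limma adjusted p = 0.144), and 2 with only those groups fitted. With 1 library left out, it ranged from 1 to 2 there (2 without SCDM replicate 1 and without SCDM replicate 3) and from 1 to 2 in FIBCL against SCDM (2 without SCDM replicate 1, when Abcg1 was called), and Trem2 in SCDM/FGF against SCDM ranged from -0.13 to 0.0096, the last without SCDM/FGF replicate 2. Abcg1 in SCDM against spheres, not called otherwise, was called higher with a filter of 5 TPM in 3 libraries (limma adjusted p = 0.0471). The same held without sphere replicate 2 (limma adjusted p = 0.0222) and without SCDM replicate 2 (limma adjusted p = 0.00414). Lpl in SCDM/FGF against SCDM was called lower without SCDM replicate 1 (-0.28, limma adjusted p = 0.0214). The cause of these changes was not tested.

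No pairing by replicate number was seen, and 5 of 12 libraries correlated best with their own number. With 3 libraries a group this does not exclude a shared preparation. With the replicate block, 5192 genes were higher and 6199 lower in FIBCL against SCDM, and the 10 genes gave 1 higher and 8 lower there. A count test with DESeq2 was not run because the table holds no counts. With 3 libraries a group and unknown depth, values near 1 TPM, such as Abcg1 in SCDM/FGF, are uncertain.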
